A study of Mus musculus with 32 samples.

Results

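Desert peaks are stretches of chromatin that carried H3K27me3 in wild-type mouse oocytes 6 days after birth (P6) and lay far from any protein-coding gene. They were selected on presence, width and position as the autosomal peaks of the deposited wild-type P6 H3K27me3 list that were 5000 to 49999 bp wide and at least 200 kb from the nearest protein-coding gene span in RefSeq's GRCm38.p6 annotation. This rule took 3520 of the 29589 autosomal peaks of that width, which stood among 71293 autosomal peaks and 75798 peaks in all. Their presence, width, signal and distance in that list are therefore the choice itself and are given only as a description. The other 15 peak lists of the series did not enter the choice, and each desert peak was called found in a list when at least 1 bp of it was covered there.

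The series profiled 2 histone marks by CUT&Tag, in which an antibody leads a transposase to chromatin with the mark so that DNA nearby is tagged for sequencing. Oocytes from the ovary were taken from wild-type mice (WT) late in gestation (E18.5), at P1, at P6 as non-growing oocytes and at P7 as growing oocytes, and both H3K27me3 and H2AK119ub were profiled at each. The PRC1 control (PRC1ctrl) is labelled Ring1-/-; Rnf2F/+; Ddx4-Cre and the PRC1 knockout (PRC1cKO) is labelled Ring1-/-; Ring1F/-; Ddx4-Cre, so both lack Ring1 and carry the Cre, and both were profiled for H3K27me3 in P6 non-growing and P7 growing oocytes. The knockout label names Ring1 for the floxed allele where the control label names Rnf2, and the peak lists cannot settle which is meant. The PRC2 control (PRC2ctrl), EedF/+; Ddx4-Cre, and the PRC2 knockout (PRC2cKO), EedF/-; Ddx4-Cre, were profiled for both marks in P6 non-growing oocytes. Ddx4-Cre is active in germ cells, so somatic cells of these ovaries keep the floxed gene. The 32 samples formed 16 groups of 2, and 1 peak list stood for each group, so no spread between samples can be had and no comparison below has a test.

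Polycomb repressive complex 2 (PRC2) places trimethylation on histone H3 (H3K27me3), and its Eed subunit is needed for that activity. Polycomb repressive complex 1 (PRC1) places ubiquitin on histone H2A (H2AK119ub) through the ligases RING1 and RNF2. Each complex can bind the mark of the other, and in many cells both marks sit together on the CpG-rich promoters of silent developmental genes. Oocytes also carry H3K27me3 in broad domains away from promoters, gene deserts among them. Deserts can hold long-range enhancers of the developmental genes at their edges.

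The 16 lists covered between 244.2 Mb (WT P7 H2AK119ub) and 728.3 Mb (WT P6 H2AK119ub), and the H3K27me3 lists between 428.6 Mb (PRC2cKO P6) and 618.8 Mb (WT P7). The lowest total signal of any listed peak ran from 3754 in WT P7 H2AK119ub to 20369 in WT P6 H2AK119ub, so a list with a low minimum can hold weak peaks that another leaves out. The depth in reads is unknown. Shares are given with exact Clopper-Pearson 95% intervals, which cover counting error only and treat neighbouring peaks as independent, which they are not. Because every desert peak had to be in the WT P6 H3K27me3 list, each share is read against all 29589 autosomal peaks of the same width in that list and against the 12994 of them that touch a protein-coding gene.

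Protein-coding genes are absent from these peaks by the rule, but 795 of the 3520 (22.6%) overlapped a non-coding entry of the annotation, and 617 (17.5%) overlapped a long non-coding RNA (lncRNA) gene. Such entries took up 11.1% of desert sequence and 16.5% of the desert peaks' own sequence. The annotation does not class antigen receptor V segments as protein-coding, and 9 desert peaks overlapped one. Start-site windows of 300 bases, reaching from before to just after a gene's start in RefSeq's GRCm38.p6 table, lay wholly inside desert peaks for 205 genes. The dinucleotide CG, which reads the same on both strands, was counted in each. The median was 3 CG per window, and 18 of the 205 windows (8.78%) held at least 10, against 19.1% of the 11311 autosomal lncRNA windows and 44% of all 31396 autosomal windows. The windows below are shown because they carry the most CG, taking 1 per peak, among those in desert peaks found in all 15 other lists (Gm13652, Gm31129 and Gm32918) and among those in desert peaks without H2AK119ub in the WT P6 list (Mir100hg, Gm32810 and Gm30583). Capitals mark CG, and each sequence is written 5′ to 3′ on the gene's strand.

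Gm13652 promoter window, chr2:75137926-75138225, minus strand: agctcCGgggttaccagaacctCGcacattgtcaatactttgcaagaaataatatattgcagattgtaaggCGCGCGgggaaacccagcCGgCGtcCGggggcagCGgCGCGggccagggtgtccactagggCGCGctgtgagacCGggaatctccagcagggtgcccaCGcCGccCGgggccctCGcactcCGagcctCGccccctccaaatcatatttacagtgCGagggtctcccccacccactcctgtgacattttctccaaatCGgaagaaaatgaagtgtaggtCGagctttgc
Gm31129 promoter window, chr5:119133402-119133701, plus strand: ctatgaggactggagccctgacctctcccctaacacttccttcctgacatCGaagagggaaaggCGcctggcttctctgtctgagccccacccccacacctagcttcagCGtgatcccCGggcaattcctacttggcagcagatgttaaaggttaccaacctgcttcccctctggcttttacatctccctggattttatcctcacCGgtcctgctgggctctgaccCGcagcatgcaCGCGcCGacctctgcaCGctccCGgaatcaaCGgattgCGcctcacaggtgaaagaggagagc
Gm32918 promoter window, chr15:74204400-74204699, minus strand: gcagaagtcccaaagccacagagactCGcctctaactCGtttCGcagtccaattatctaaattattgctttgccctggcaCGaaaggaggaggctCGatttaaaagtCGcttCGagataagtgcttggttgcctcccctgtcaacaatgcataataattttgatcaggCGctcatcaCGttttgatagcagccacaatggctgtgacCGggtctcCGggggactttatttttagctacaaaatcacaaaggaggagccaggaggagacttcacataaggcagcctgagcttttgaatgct
Mir100hg promoter window, chr9:41376276-41376575, plus strand: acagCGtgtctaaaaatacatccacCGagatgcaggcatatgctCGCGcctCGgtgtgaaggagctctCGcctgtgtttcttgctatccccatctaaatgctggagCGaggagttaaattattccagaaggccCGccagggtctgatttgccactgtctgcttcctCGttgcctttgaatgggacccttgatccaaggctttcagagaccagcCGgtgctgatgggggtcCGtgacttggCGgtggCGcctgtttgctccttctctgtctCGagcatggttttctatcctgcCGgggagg
Gm32810 promoter window, chr1:112416869-112417168, minus strand: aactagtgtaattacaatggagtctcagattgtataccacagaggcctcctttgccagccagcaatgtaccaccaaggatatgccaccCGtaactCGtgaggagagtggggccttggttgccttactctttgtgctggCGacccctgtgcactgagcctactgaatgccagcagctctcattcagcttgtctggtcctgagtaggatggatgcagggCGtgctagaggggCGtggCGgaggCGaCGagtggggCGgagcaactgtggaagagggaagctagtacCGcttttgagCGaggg
Gm30583 promoter window, chr6:138873413-138873712, plus strand: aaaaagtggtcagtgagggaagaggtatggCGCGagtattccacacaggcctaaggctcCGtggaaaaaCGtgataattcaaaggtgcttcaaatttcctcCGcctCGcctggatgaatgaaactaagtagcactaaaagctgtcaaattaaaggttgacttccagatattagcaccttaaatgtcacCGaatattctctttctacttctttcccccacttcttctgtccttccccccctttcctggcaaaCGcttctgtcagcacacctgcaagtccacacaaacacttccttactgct

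The Gm13652 window held 23 CG and lay in a 13.0 kb peak, 259.6 kb from the nearest protein-coding gene, between Gm50595 and Mtx2, a neighbour of the Hoxd cluster of homeobox genes. The Gm31129 window held 13 CG and lay in an 18.1 kb peak between Med13l and Tbx3, a T-box transcription factor gene of limb and heart development. The Mir100hg window held 15 CG, at the start of the lncRNA that hosts miR-100 and miR-125b-1. Its 7.908 kb peak was covered in WT E18.5 (5.925 kb) and WT P1 (6.934 kb), by no peak in WT P7 or PRC1ctrl P7, and over 6.001 kb in PRC1cKO P7. The Gm30583 peak (9.852 kb, with 8 CG in its window) showed the same order, with 9.145 kb covered at E18.5, 9.122 kb at P1, none in WT P7 or PRC1ctrl P7 and 3.211 kb in PRC1cKO P7. In the Gm32810 peak between Dsel and Cntnap5a, 2.162 kb of 5.807 kb was covered in WT P7, 1.468 kb in PRC1ctrl P7 and 5.675 kb in PRC1cKO P7. These windows were picked for their CG. Over all windows, 9.8% of the 102 in desert peaks found in all 15 other lists and 9.09% of the 22 in desert peaks without WT P6 H2AK119ub held at least 10 CG.

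Mature microRNAs with a RefSeq sequence lay inside 5 desert peaks. They are shown 5′ to 3′ with the seed, bases 2 to 8, in capitals, to show which microRNAs lie in this sequence. No 2 of the 5 share a seed.

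miR-125b-5p, chr9:41581940-41581961, plus strand: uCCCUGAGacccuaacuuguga
miR-802-5p, chr16:93369737-93369758, plus strand: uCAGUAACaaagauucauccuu
miR-8099, chr12:93927373-93927393, plus strand: cCAAGGCGugggaaagguugu
miR-6390, chr14:105623710-105623730, minus strand: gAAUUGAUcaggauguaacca
miR-1952, chr2:138819943-138819959, plus strand: uCUCCACCcuccuucug

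The peak with miR-125b-1, the microRNA related to worm lin-4, was 29.36 kb wide and was found in all 15 other lists, and so was the 12.74 kb peak with miR-802 between Runx1 and Setd4. The miR-8099 peak was found in 14 lists and the miR-6390 peak near Spry2 in 13. The 9.824 kb peak with miR-1952, between Btbd3 and Sptlc3, was found in 5 lists, all H3K27me3 (7.332 kb covered in WT P1, 3.651 kb in PRC1ctrl P6, 6.341 kb in PRC1cKO P6, 9.376 kb in PRC2ctrl P6 and 4.624 kb in PRC2cKO P6). It was in no H2AK119ub list and in no P7 list. The Mir100hg start and miR-125b-1 thus lie in separate desert peaks of 1 host gene that differed in both marks.

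In the WT P6 list that chose them, desert peaks had a median width of 7.136 kb (5 to 49.72 kb), a median total signal of 40659 (12347 to 2817283) and a median signal per bp of 5.421. Gene-touching peaks of the same width range had medians of 9.279 kb, 72620 and 7.536, so desert peaks were narrower and weaker. The distance to the nearest protein-coding gene had a median of 333 kb and reached 2173 kb, with 902 peaks (25.6%) at 500 kb or more and 218 at 1 Mb or more. The nearest peaks on either side of the limit lay at 200075 and 199859 bp, and those at the width limits were 5000 against 4998 bp and 49716 against 50508 bp. Counts per chromosome ran from 50 on chromosome 19 to 281 on chromosome 5. Between neighbouring genes, 572 of 737 deserts held at least 1 desert peak, with a median of 4, and 109 of them held 50% of all. Desert peaks thus spread over many deserts, but unevenly.

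Before birth and just after it, H3K27me3 touched desert peaks about as often as other peaks when at least 1 bp had to be covered. Of the 3520 desert peaks, 3164 (89.9%, interval 88.84 to 90.86) were found in WT E18.5 H3K27me3, against 90.7% of all peaks of the width range. In WT P1, 3268 (92.8%, 91.94 to 93.67) were found, against 92% of all. In growing oocytes of WT P7, 2499 (71%, 69.46 to 72.49) were found, against 84.5% of all and 87.6% of gene-touching peaks. The intervals of desert and gene-touching shares overlapped at E18.5 and P1 and lay far apart at P7, as the plot of shares by list shows. When all lists were trimmed to their strongest peaks at the same covered length, desert peaks stood below gene-touching peaks at every stage (24.9% against 52.1% at E18.5, 21.3% against 45.3% at P1 and 9.35% against 39.2% at P7). The WT P6 list itself, trimmed, held 18.4% of its desert peaks and 47.9% of its gene-touching peaks. Of the desert peaks, 2214 (62.9%) were in all 3 other WT stages, against 77.5% of gene-touching peaks. Another 834 (23.7%) were in E18.5 and P1 but absent from P7, a pattern of 13.4% of all peaks of the width range and 10.8% of gene-touching peaks.

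**Figure D1:**
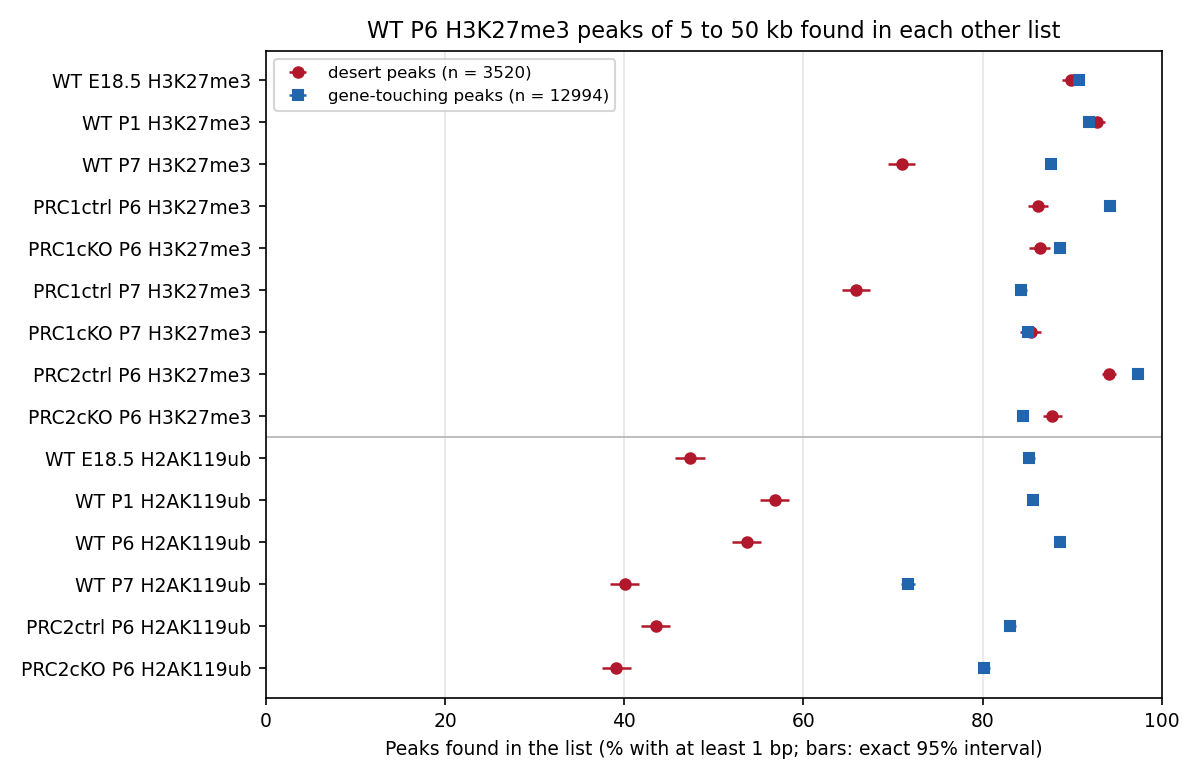
Share of WT P6 H3K27me3 peaks of 5 to 50 kb found in each of the 15 other lists (horizontal axis, percent with at least 1 bp covered), for 3520 desert peaks (circles) and 12994 gene-touching peaks (squares), with exact 95% intervals. Among H3K27me3 lists, desert peaks lie far below gene-touching peaks in WT P7 (71% against 87.6%) and PRC1ctrl P7 (65.9% against 84.3%). They lie less far below in PRC1ctrl P6 (86.2% against 94.2%) and PRC2ctrl P6 (94.1% against 97.4%). In the other H3K27me3 lists they lie near gene-touching peaks or above them. They lie below them in all 6 H2AK119ub lists.

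The share found in WT P7 was lower with greater distance from genes. It was 87.6% for gene-touching peaks, 87% within 50 kb, 82.3% from 50 to 200 kb, 75.9% (74.21 to 77.53) from 200 to 500 kb and 56.8% (53.46 to 60.02) at 500 kb and over. The E18.5 shares stayed between 89.4% and 91.4% over the same 5 classes, and the P1 shares between 91.4% and 93.7%. Signal moved with distance too: the median total signal was 72620 in gene-touching peaks and 34498 at 500 kb and over, and its part in the result was not tested beyond the following. When gene-touching peaks were weighted to the signal deciles of desert peaks, an alternative chosen after seeing the data, 80.2% of them were found in WT P7, so the gap to 71% was smaller but remained. Among peaks in the top quartile of signal there was no such gap, with 98.3% of 360 desert peaks and 97.5% of 4579 gene-touching peaks found, while in the lowest quartile the shares were 50.2% and 68.6%. Weighting by signal gave gene-touching shares of 83.6% at E18.5 and 85.1% at P1, below the 89.9% and 92.8% of desert peaks.

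**Figure D2:**
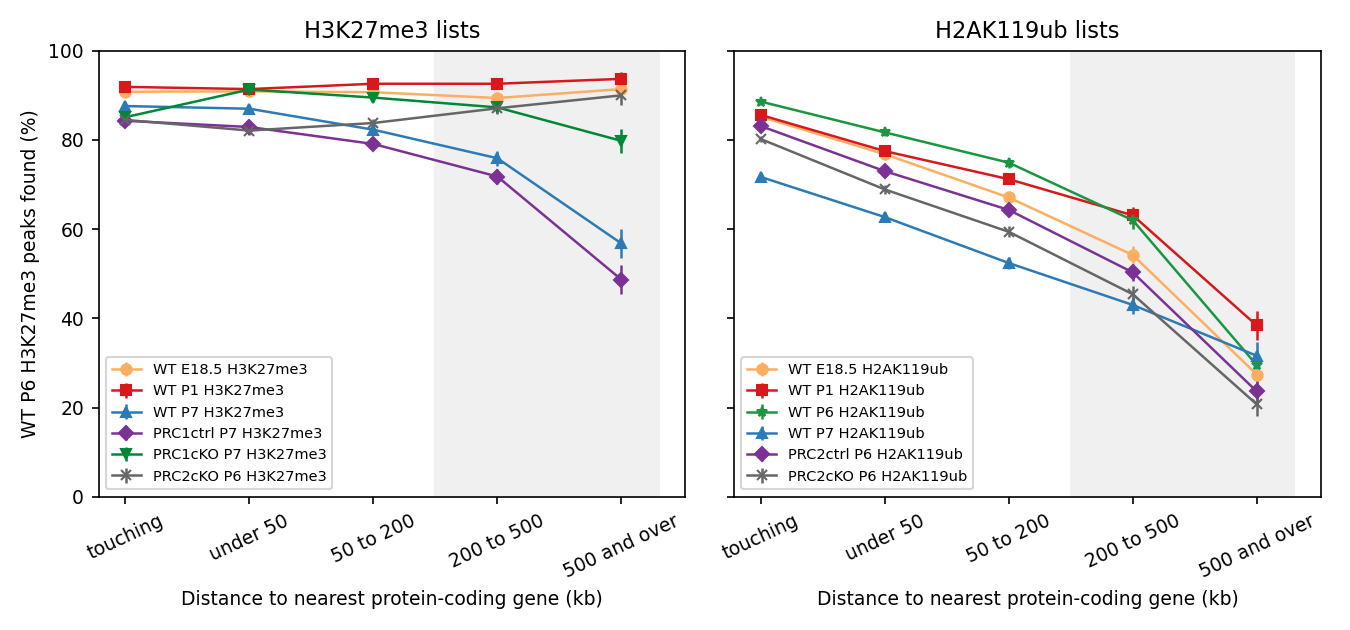
Share of WT P6 H3K27me3 peaks of 5 to 50 kb found (vertical axis, percent) by distance to the nearest protein-coding gene (horizontal axis, 5 classes in kb) in 6 H3K27me3 lists (left) and 6 H2AK119ub lists (right), with exact 95% intervals and the desert classes shaded. WT E18.5 and P1 H3K27me3 are flat, WT P7 goes from 87.6% to 56.8%, PRC1ctrl P7 from 84.3% to 48.7%, and every H2AK119ub line goes down with distance.

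The covered share of all desert sequence gave a view that does not depend on the choice of peaks. Desert sequence, the 479 Mb between neighbouring protein-coding genes that lies at least 200 kb from both, was covered by H3K27me3 peaks of any width over 11.6% at WT E18.5, 13.9% at P1, 13% at P6 and 10.6% at P7. The other 1950 Mb of the autosomes was covered over 20.2%, 21.8%, 22.5% and 28.1%. The P7 list thus covered less desert sequence than the P6 list (50.63 against 62.45 Mb) and more of the rest (547.1 against 439 Mb). The same step in PRC1ctrl went from 12.2% to 8.4% of desert sequence, with 22.4% of the rest in both lists. In PRC1cKO it went from 14.7% to 11.3%, with 21.8% and 19.8% of the rest, but with lists trimmed to the same covered length the direction turned, from 2.92% at P6 to 3.31% of desert sequence at P7. The trimmed WT lists kept their direction (2.5% to 1.74%). The trimmed PRC1ctrl lists hardly differed, with overlapping intervals (2.23%, 2.103 to 2.37, and 2.15%, 2.022 to 2.284). H2AK119ub covered between 2.73% (WT P7) and 9.6% (WT P1) of desert sequence, and between 11.5% and 33.7% of the rest. H2AK119ub at WT P7, lowest as deposited, was highest of the H2AK119ub lists when trimmed (2.73%, against 1.23% to 1.87% in the others).

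**Figure D3:**
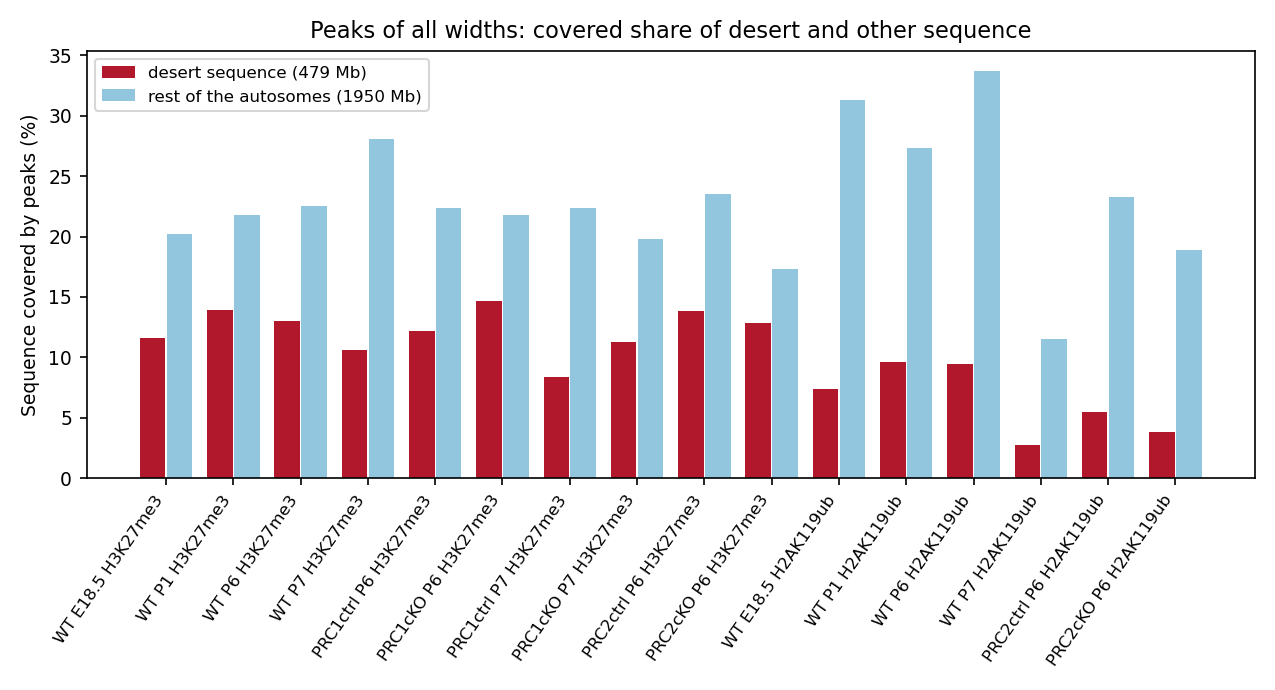
Share of desert sequence (479 Mb, dark bars) and of the rest of the autosomes (1950 Mb, light bars) covered by peaks of any width (vertical axis, percent) in each of the 16 lists. WT P7 H3K27me3 has the highest bar of the H3K27me3 lists outside deserts (28.1%) and 10.6% inside them, and the H2AK119ub lists show the widest relative gaps.

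H2AK119ub, the PRC1 mark, was found at fewer desert peaks than at other H3K27me3 peaks in all 6 lists. In WT it was found at 1667 desert peaks at E18.5 (47.4%, 45.7 to 49.02), 1998 at P1 (56.8%, 55.11 to 58.41), 1889 at P6 (53.7%, 52 to 55.32) and 1410 at P7 (40.1%, 38.43 to 41.7). The shares of all peaks of the width range were 75.1%, 77.4%, 80.1% and 62%. The order of the stages turned with lists trimmed to the same covered length, where the desert shares were 6.51%, 10.5%, 6.11% and 40.1%, the P7 list being the shortest and so left whole. Trimmed gene-touching shares turned too (34.5%, 40.7%, 37.1% and 71.7%), so this was not particular to deserts. The trimmed lists kept 5625, 8744, 5031 and 80950 peaks, and the part of peak number and width was not tested. As deposited, gene-touching peaks stood at 85.2%, 85.6%, 88.6% and 71.7%, and at 81% in the P6 list when weighted to the signal of desert peaks. At 500 kb and over, 29.5% (26.53 to 32.58) carried H2AK119ub in WT P6. None of the 6 H2AK119ub lists held 892 desert peaks (25.3%, against 10.5% of all peaks of the width range), and all 6 held 746 (21.2%, against 49.7%). Of the 15 lists together, all held 571 desert peaks (16.2%, against 37.1%) and none held 5 (0.142%, against 0.0237%), while the 9 other H3K27me3 lists all held 1543 (43.8%, against 57.8%).

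Desert peaks with H2AK119ub in the WT P6 list were found far more often in the growing-oocyte list of H3K27me3 than those without it. Of the 1889 desert peaks with the mark, 1729 (91.5%, 90.18 to 92.75) were found in WT P7 H3K27me3, and of the 1631 without it 770 (47.2%, 44.76 to 49.67) were found, against 84.5% of all peaks of the width range. Gene-touching peaks gave much the same pair, 92.5% of 11515 and 49.4% of 1479, so the split is not particular to deserts. At E18.5 the desert shares were 89.8% with and 89.9% without, and at P1 they were 92.4% and 93.4%. Desert peaks with H2AK119ub also had more H3K27me3 signal (median 52953 against 32808), were wider (8.036 against 6.617 kb) and lay nearer to genes (298 against 404.9 kb). Weighted to the signal deciles of the peaks with the mark, an alternative added after seeing the data, the peaks without it stood at 66.1% in WT P7, still below 91.5%. The parts of width and distance were not tested.

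**Figure D4:**
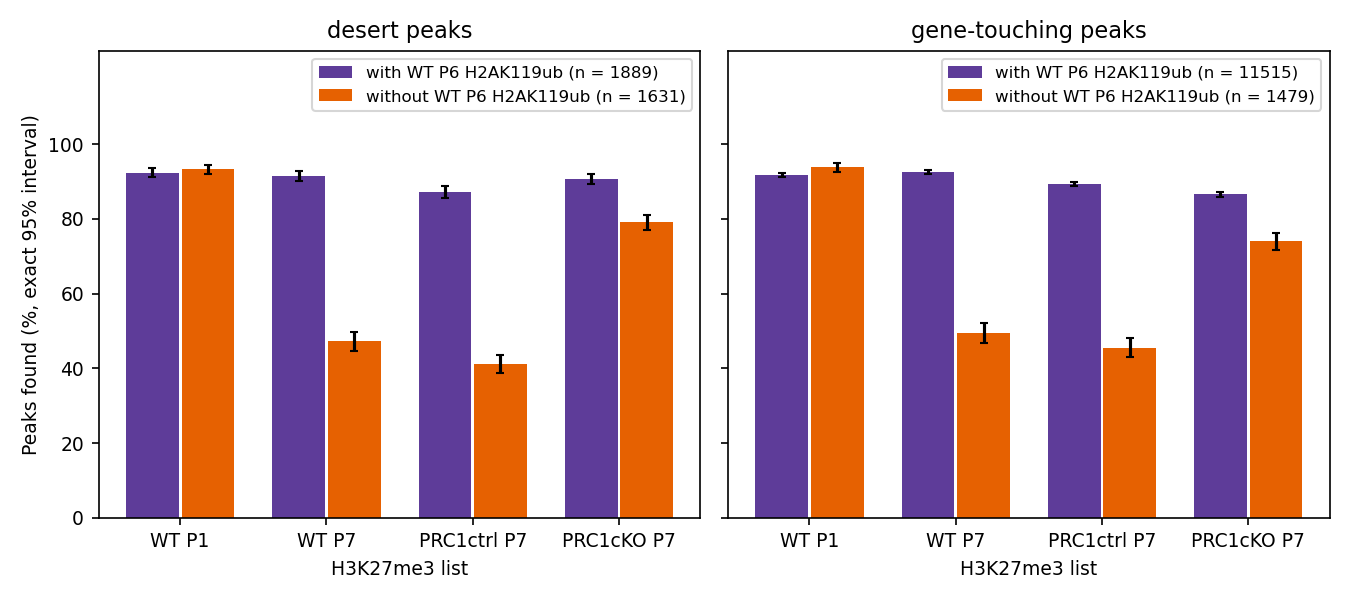
Share of WT P6 H3K27me3 peaks found (vertical axis, percent) in 4 H3K27me3 lists, for peaks with and without H2AK119ub in the WT P6 list, for desert peaks (left) and gene-touching peaks (right), with exact 95% intervals. In WT P7 and PRC1ctrl P7 the desert bars differ widely (91.5% against 47.2%, and 87.2% against 41.1%), in PRC1cKO P7 less (90.7% against 79.2%), and at WT P1 hardly (92.4% against 93.4%). The gene-touching bars go the same way in these lists (92.5% against 49.4%, 89.3% against 45.5%, 86.6% against 74.1%, and 91.7% against 93.9%).

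In non-growing oocytes the PRC1 knockout and its control lists, as deposited, held desert peaks about equally often. PRC1ctrl P6 held 3035 (86.2%, 85.04 to 87.34) against 92.2% of all peaks of the width range, and PRC1cKO P6 held 3040 (86.4%, 85.19 to 87.48) against 88.6%. Gene-touching peaks stood at 94.2% and 88.6%, so desert peaks stood further below them in the control list. At 500 kb and over, the control held 79.7% and the knockout 84.4%. With trimmed lists the desert shares were 15.6% and 19.5%. Of the 3035 in the control, 218 (7.18%) were absent from the knockout, near the 7.81% of all peaks, and this share ran from 2.07% to 25.7% over the alternatives of overlap, distance, signal and list length. Of the 485 absent from the control, 223 (46%) were in the knockout, near the 45.4% of all peaks.

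In growing oocytes the PRC1 knockout list held more desert peaks than its control. PRC1ctrl P7 held 2318 (65.9%, 64.26 to 67.42) against 80.8% of all peaks of the width range, and PRC1cKO P7 held 3006 (85.4%, 84.19 to 86.55) against 87.5%, a difference of 19.55 percentage points at desert peaks. Gene-touching peaks stood at 84.3% and 85.1% in the same lists. Peaks near genes that touched none stood higher in the knockout list too. Their shares in control and knockout were 82.9% and 91.3% within 50 kb, and 79.1% and 89.5% from 50 to under 200 kb. The higher share in the knockout list was thus not particular to deserts. At 500 kb and over the shares were 48.7% (45.36 to 51.99) in the control and 79.8% (77.05 to 82.4) in the knockout. Of the 1202 desert peaks absent from PRC1ctrl P7, 845 (70.3%, 67.63 to 72.87) were in PRC1cKO P7, against 64.8% of all peaks and 56.8% of gene-touching peaks, and of the 2318 in the control 157 (6.77%) were absent from the knockout, near the 7.04% of all peaks (2.07% to 26.3% over the alternatives). The lowest total signal listed was 5094 in PRC1cKO P7 and 7218 in PRC1ctrl P7, while the knockout list covered less in all (463.3 against 491.6 Mb). With every list trimmed to its strongest peaks until all covered the same length, PRC1cKO P7 held 25.7% of desert peaks and PRC1ctrl P7 13.7%, and both held about the same share of gene-touching peaks (44.2% and 44.1%).

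From P6 to P7, a larger share of desert peaks was absent in WT and PRC1ctrl than in PRC1cKO. Of the desert peaks in WT P6, 1021 (29%, 27.51 to 30.54) were absent from WT P7, against 15.5% of all peaks of the width range. The WT value only restates the share found in WT P7, since the rule put every desert peak in WT P6 and no gain can be seen. Of those in PRC1ctrl P6, 910 (30%, 28.36 to 31.65) were absent from PRC1ctrl P7, against 16.9%. Of those in PRC1cKO P6, 329 (10.8%, 9.74 to 11.98) were absent from PRC1cKO P7, against 9.24%. The other way, of the 485 desert peaks absent from PRC1ctrl P6, 193 (39.8%) were in PRC1ctrl P7, against 52.9% of all peaks. Of the 480 absent from PRC1cKO P6, 295 (61.5%) were in PRC1cKO P7, against 62.7%. By H2AK119ub in WT P6, the share found in PRC1ctrl P7 was 87.2% with and 41.1% without the mark, and in PRC1cKO P7 it was 90.7% with and 79.2% without. Gene-touching peaks stood at 89.3% with and 45.5% without in PRC1ctrl P7, and at 86.6% and 74.1% in PRC1cKO P7. The smaller gap in the knockout list was thus not particular to deserts. Of the 961 desert peaks without the mark that were absent from PRC1ctrl P7, 681 (70.9%) were in PRC1cKO P7, and of the 241 with it 164 (68%) were. Both shares lay near the 70.3% of all 1202 desert peaks absent from PRC1ctrl P7, against 64.8% of all peaks of the width range.

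The Eed knockout list still held most desert peaks of H3K27me3. PRC2ctrl P6 held 3314 (94.1%, 93.32 to 94.9) against 96.5% of all peaks of the width range and 97.4% of gene-touching peaks. PRC2cKO P6 held 3092 (87.8%, 86.72 to 88.9) against 84.2% of all and 84.5% of gene-touching peaks. At 500 kb and over, 90% (87.88 to 91.9) were in the knockout list. Of the 3314 in the control, 327 (9.87%, 8.873 to 10.93) were absent from the knockout, against 13.9% of all peaks (2.92% to 21.1% over the alternatives). At equal signal the share of gene-touching peaks in PRC2cKO P6 was 71.6%. The order of the 2 classes turned when all lists were trimmed to the same covered length, where PRC2cKO P6 held 33% of desert and 43.1% of gene-touching peaks. PRC2cKO P6 nonetheless had the highest trimmed share of desert peaks among the H3K27me3 lists. A peak list gives presence and not the amount of the mark left, so these shares do not measure how much H3K27me3 the knockout kept.

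For H2AK119ub, desert peaks of the Eed control were absent from the knockout list more often than other peaks. PRC2ctrl P6 held 1531 (43.5%, 41.85 to 45.15) against 72.2% of all peaks of the width range, and PRC2cKO P6 held 1376 (39.1%, 37.47 to 40.73) against 68.5%. Of the 1531, 364 (23.8%, 21.66 to 25.99) were absent from the knockout, against 11.6% of all peaks and 7.72% of gene-touching peaks (18.4% to 44.6% over the alternatives). The knockout list covered 398.2 Mb and the control list 498.4 Mb. With both trimmed to the same covered length, 21.5% of the control's desert peaks were absent from the knockout, but the order of the lists turned: PRC2cKO P6 held 12.6% of desert peaks and PRC2ctrl P6 8.61%.

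Genes at the edges of deserts were compared with lists of gene classes, and a desert peak was counted for a list when the nearest protein-coding gene on either side of it belonged to that list. Developmental transcription factors flanked 641 desert peaks (18.2%, 16.95 to 19.53) on 10.3% of desert sequence, which is 13 desert peaks per Mb against 7.328 over all deserts. Neuronal adhesion and synapse genes flanked 654 (18.6%, 17.31 to 19.9) on 27.1% of desert sequence, which is 5.047 per Mb. Of the desert peaks beside transcription factors, 71.1% had H2AK119ub in WT P6 and 83.2% were in WT P7 H3K27me3. Beside adhesion genes those shares were 32% and 55.8%, and over all desert peaks they were 53.7% and 71%. In PRC1cKO P7 the shares were 91.1% and 79.8%, against 85.4% of all desert peaks. At 500 kb and over, transcription factors flanked 13.1% and adhesion genes 36.7% of the desert peaks. No share of desert sequence at that distance stands beside such values here or below, so they are a description only. Peaks of 1 desert share their flanking genes, so these counts are a description of 93 and 86 deserts.

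The transcription factor genes with the most desert peaks were Sall3, a zinc finger gene, with 34, the Iroquois homeobox gene Irx1 with 24, the nuclear receptor gene Nr2f2 with 23 and the teashirt zinc finger gene Tshz1 with 22. All 34 beside Sall3 had H2AK119ub in WT P6 and 33 were in WT P7 H3K27me3, and all 22 beside Tshz1 had both. Beside Nr2f2, 15 of 23 had H2AK119ub and 17 were in WT P7. The adhesion genes with the most were the protocadherin gene Pcdh17 with 40, the cadherin gene Cdh8 with 35, the contactin-associated gene Cntnap5a with 35 and the latrophilin gene Adgrl2 with 33. Beside Pcdh17, 12 of 40 had H2AK119ub and 23 were in WT P7, 23 in PRC1ctrl P7 and 34 in PRC1cKO P7. Beside Cntnap5a, 8 of 35 had H2AK119ub, 18 were in WT P7, 16 in PRC1ctrl P7 and 23 in PRC1cKO P7. Beside Adgrl2, 24 of 33 had H2AK119ub, a larger share than beside Pcdh17, Cdh8 or Cntnap5a.

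Genes of developmental signalling and axon guidance flanked 209 desert peaks (5.94%) on 6.63% of desert sequence, and neuronal channels and receptors flanked 194 (5.51%) on 5.63%. Robo1, the Slit receptor gene, flanked 26, of which 12 were in WT P7, 9 in PRC1ctrl P7 and 24 in PRC1cKO P7. Epha7 flanked 22, Efna5, an ephrin ligand gene, 20 and Epha4 17. Of the channel and receptor genes, the galanin receptor gene Galr1 flanked the most, 34, which are the desert peaks it shares with Sall3: all 34 had H2AK119ub in WT P6, 33 were in WT P7, and all 34 were in PRC1ctrl P7 and in PRC1cKO P7. The kainate receptor gene Grik2 flanked 21, of which 13 were in WT P7, 10 in PRC1ctrl P7 and 19 in PRC1cKO P7. The neuromedin B receptor gene Nmbr flanked 14 and the NMDA receptor gene Grin3a 12. Ribosomal protein genes flanked 36 (1.02%) on 0.651% of desert sequence, 20 of them beside Rps24, 5 beside Rpl38, 5 beside Rps29 and 3 beside Rplp1. These were 11.55 per Mb in 7 deserts, 94.4% of the 36 had H2AK119ub and 88.9% were in WT P7. High density and high shares were thus not particular to transcription factors. At 500 kb and over, ribosomal protein genes flanked 0.111%. Olfactory and vomeronasal receptor genes flanked 1 desert peak, beside Olfr161, on 3 deserts with 0.23% of desert sequence. The 42 oocyte growth and maternal-effect genes flank none of the 737 deserts, so they could flank no desert peak.

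The 5 deserts with the most desert peaks held 184 of them. On chromosome 5, the 44 between Gm4868 and Tmem132c (chr5:125849962-127241825) took up 51.5% of the desert sequence there, with 37 in WT P7, 36 in PRC1ctrl P7 and 41 in PRC1cKO P7 H3K27me3 but 16 in WT P6 H2AK119ub. The 44 between Auts2, whose product takes part in a PRC1 variant, and Castor2 (chr5:132543221-134099747) stood at 38, 38, 37 and 27. Both deserts were less often in the P6 lists of the PRC1 lines (25 and 28 of 44, and 27 and 22 of 44, in control and knockout) than in the PRC2 control (44 and 43). Between Sall3 and Galr1 (chr18:80987022-82392495), all 34 had H2AK119ub in WT P6 and PRC2ctrl P6, and 33 were in WT P7 H3K27me3. Between Dsel and Cntnap5a (chr1:111865053-115684736), 15 of 32 were in WT P7, 15 in PRC1ctrl P7 and 20 in PRC1cKO P7. Between Olfm4 and Pcdh17 (chr14:80023142-84443562), 14 of 30 were in WT P7, 14 in PRC1ctrl P7 and 25 in PRC1cKO P7, and 7 had H2AK119ub in WT P6.

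**Figure D5:**
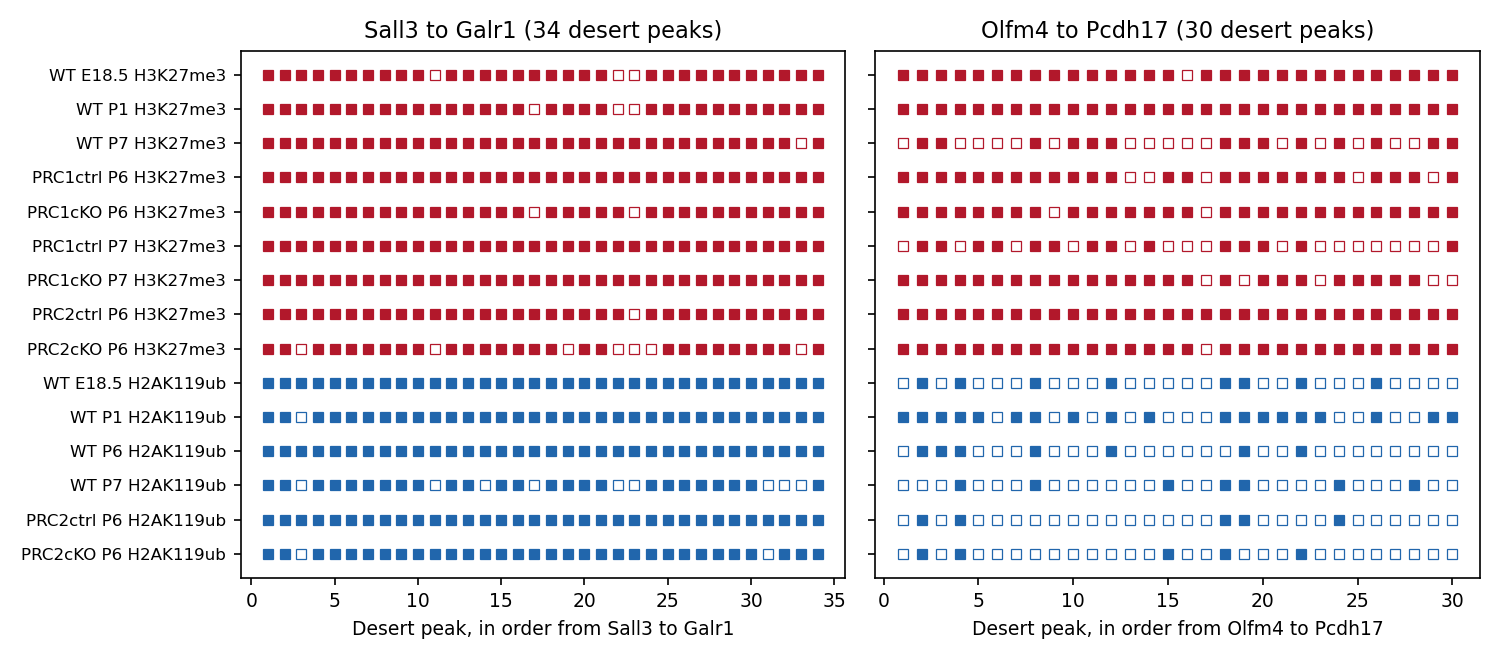
Desert peaks of 2 deserts in order along the chromosome (horizontal axis, peak number), found (filled) or not found (open) in each of the 15 other lists (vertical axis; H3K27me3 in red, H2AK119ub in blue). Between Sall3 and Galr1, 33 of 34 are filled in WT P7 H3K27me3 and all 34 in WT P6 H2AK119ub, whereas between Olfm4 and Pcdh17 those counts are 14 and 7 of 30.

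Single desert peaks were named for signal, width, distance and pattern. The highest total signal, 2817283, lay in a 7.11 kb peak at chr2:98661003-98668112 between Lrrc4c and Iftap, with a signal per bp of 396.2 against a median of 5.421. The next, 2771366, lay at chr9:2999990-3038509, before the first protein-coding gene of its chromosome, Alkbh8, with 71.95 per bp. Both were in all 15 other lists of both marks, knockouts included, and the third-highest signal per bp was 31.2. These 2 stood apart from the rest. They add 2 to each count of found peaks. Whether regions of such outlying signal were filtered from the lists is not given. Whether the signal at these 2 peaks reflects either mark was not tested. The next by total signal was a 49.33 kb peak at chr15:74189860-74239191 between Gm6569 and Adgrb1, which holds the Gm32918 window shown above. It was covered over 49.07 kb in WT P7, 47.71 kb in PRC1ctrl P7, 48.41 kb in PRC1cKO P7 and 46.3 kb in PRC2cKO P6 H3K27me3. The widest, 49.72 kb at chr15:74138169-74187884, lay beside it. In the imprinted region between Rtl1 and Dio3, a 32.89 kb peak at chr12:109997645-110030532 was covered over its full width in PRC2cKO P6 and over 23.64 kb in WT P6 H2AK119ub.

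Other peaks of high total signal or width had at least 30.33 kb covered in every list of H3K27me3. They lay between Gm4868 and Tmem132c (46.48 kb, of which 25.2 kb had WT P6 H2AK119ub), Zfp507 and Gm36722 (47.59 kb), Gadd45g and Diras2 (48.78 kb), Matn1 and Ptpru (40.87 kb), Smad2 and Skor2 (37.53 kb) and Zfp64 and Tshz2 (49.42 kb). In the last, H2AK119ub covered 32.15 kb in WT P6, 17.4 kb in PRC2ctrl P6 and 4.116 kb in PRC2cKO P6.

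The 5 desert peaks farthest from a gene all lay on chromosome 14, 3 between Olfm4 and Pcdh17 and 2 between the protocadherin genes Pcdh20 and Pcdh9. The farthest, at 2173 kb, was a 5.364 kb peak at chr14:82265283-82270646 that was in 13 other lists, 5 of them H2AK119ub. It was covered over its full width in WT P7 H3K27me3 and over 3.482 kb in PRC1ctrl P7, and not at all in PRC1cKO P7, whereas more desert peaks were in the knockout alone (845) than in the control alone (157). The 8.146 kb peak at chr14:90584027-90592172 was in all 9 other H3K27me3 lists (2.922 kb in WT P7, 2.575 kb in PRC1ctrl P7 and 7.663 kb in PRC1cKO P7), and 1 H2AK119ub list.

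Of the 2945 desert peaks in both P6 control lists of H3K27me3, 66 (2.24%) were absent from both P6 knockouts, against 3.94% of the 26739 such peaks of the width range. The strongest was a 10.37 kb peak at chr12:29197434-29207804 between Eipr1 and Myt1l, a gene of a neuronal zinc finger factor. It was covered over 10.37 kb in PRC1ctrl P6, 6.294 kb in PRC2ctrl P6 and its full width in WT P7 and PRC1ctrl P7, and over 2.367 kb in PRC1cKO P7. H2AK119ub covered it in all 6 lists, over its full width in 5, PRC2cKO P6 included. A 10.61 kb peak over Lncenc1 at chr13:97496946-97507556, between Enc1 and Arhgef28, was alike: it was absent from WT E18.5 and P1, fully covered in WT P7, PRC1ctrl P7 and PRC1cKO P7, and covered by H2AK119ub in all 6 lists. The other 3 lay between 1700015G11Rik and Luzp2, Sall1 and Tox3, and Lrrc4c and Iftap, with 0, 3 and 0 H2AK119ub lists. The 5 desert peaks in no other list had total signals of 16469 to 21953 and lay between 1700015G11Rik and Luzp2, Hs3st1 and Rab28, Prmt6 and Amy2b, Jag1 and Btbd3, and Slco6d1 and Cntnap5b.

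Desert peaks over non-coding genes were more often found in both lists than desert peaks as a whole. Of the 617 that overlapped a lncRNA gene, 76.8% had H2AK119ub in WT P6 and 85.1% were in WT P7 H3K27me3, against 53.7% and 71% of all desert peaks. Of the 137 over pseudogenes the shares were 63.5% and 83.2%. Small classes went either way for H2AK119ub, with 34.6% of 26 over entries classed as other and 84.6% of 13 over snoRNA genes. The parts of peak width and signal were not tested.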

How the data were processed

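H3K27me3 and H2AK119ub were profiled by CUT&Tag with Drosophila S2 cells as spike-in. Tools named in the submitters' processing notes are Bowtie2, SAMtools, deepTools, Trim Galore 0.6.10 and Picard 3.0.0, and the builds there are GRCm38, mm10 and dm6. Which peak caller and threshold were used, whether signal was scaled to the spike-in, and how 2 samples became 1 list is not given in the sources used here. Each deposited list gives a total signal per peak and a deposited score, which were read from the values as the summed and the highest signal because the lists have no header. The score was not used in any comparison. Read depth is unknown. From these files, distances to protein-coding gene spans of RefSeq's GRCm38.p6 table, overlaps of at least 1 bp, covered lengths and exact 95% intervals were computed with Python 3.11.15, numpy 2.4.6 and scipy 1.17.1, and the overlap code was tested on simulated data. With 1 list per group no test was run. A gene list was searched at the nearest protein-coding gene on either side, and 8 listed genes lie outside the autosomes and were not counted. Desert sequence leaves out the stretches before the first and after the last gene of a chromosome, where 10 desert peaks lie.

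The desert peaks, the 7 gene lists (developmental transcription factors, neuronal adhesion and synapse organisers, developmental signalling and guidance, neuronal channels and receptors, oocyte growth, olfactory and vomeronasal receptors, ribosomal proteins) and the comparisons were chosen with earlier results of these data known. Regions named singly are the 10 with the highest total signal, the 5 widest, the 5 farthest from a gene, the 5 strongest in all 15 other lists, in no other list, and in both P6 control but neither P6 knockout H3K27me3 list, and the 5 fullest deserts. For each gene list, up to 4 genes with the most desert peaks are named. The start-site windows shown were picked by their count of CG, with windows on chromosome 18 left out of the choice. Alternatives were 50% coverage, a distance of 500 kb, desert peaks above the median signal, lists trimmed to equal covered length (244.2 Mb) and the 2 nearest genes. Weighting by signal or width and a split by the PRC2ctrl H2AK119ub list were added after seeing the data.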

Additional observations from a re-analysis of the deposited data

Results flagged for a closer look

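Chromosome X lies outside the rule that chose the desert peaks, and 107 of its WT P6 H3K27me3 peaks met the same limits of width and distance. Of these, 90 (84.1%, interval 75.79 to 90.46) were in WT E18.5, 100 (93.5%, 86.98 to 97.33) in WT P1 and 56 (52.3%, 42.46 to 62.08) in WT P7 H3K27me3. PRC1ctrl P7 held 53 (49.5%, 39.72 to 59.37) and PRC1cKO P7 held 85 (79.4%, 70.54 to 86.64). PRC2ctrl P6 held 93 (86.9%) and PRC2cKO P6 held 87 (81.3%). WT P6 H2AK119ub lay at 49 of the 107 (45.8%, 36.12 to 55.7). They were singled out because they carry the signal in data the comparisons did not use, and no difference between them and autosomal desert peaks was tested.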

How the results depend on the processing

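No paired analysis was possible because 1 list stands for both samples of a group, so no replicate could be matched or left out. With no replicates, a value is called moved when it left its own counting interval, and most shares moved. Desert shares stayed below gene-touching shares in WT P7 and PRC1ctrl P7 H3K27me3 with 50% coverage, at 500 kb, with trimmed lists and with weighting by signal or width, though not in the top quartile of signal. Trimming put desert shares below in every list, WT P6 itself included, and 50% coverage put them below at E18.5 and P1 as well. The order under trimming or 50% coverage therefore does not set P7 apart. In size, the gap at 50% coverage was widest at P7. Desert against gene-touching shares were 68.2% and 77.3% at E18.5, 81.3% and 83.3% at P1, and 56.8% and 80.9% at P7. PRC1cKO P7 held more desert peaks than PRC1ctrl P7 under all 4 alternatives of overlap, distance, signal and trimming. With at least 50% of the desert peak covered, the share of desert peaks found was, in H3K27me3 68.24% (WT E18.5), 81.34% (WT P1), 56.82% (WT P7), 75.37% (PRC1ctrl P6), 76.48% (PRC1cKO P6), 42.13% (PRC1ctrl P7), 62.05% (PRC1cKO P7), 84.01% (PRC2ctrl P6), 74.12% (PRC2cKO P6), and in H2AK119ub 33.12% (WT E18.5), 40.43% (WT P1), 44.12% (WT P6), 8.011% (WT P7), 27.33% (PRC2ctrl P6), 18.52% (PRC2cKO P6). There the share of control peaks absent from the knockout was 13.91% (PRC1 P6 H3K27me3), 18.88% (PRC1 P7 H3K27me3), 21.14% (PRC2 P6 H3K27me3), 44.59% (PRC2 P6 H2AK119ub). At 500 kb or more from a gene, the share of desert peaks found was, in H3K27me3 91.35% (WT E18.5), 93.68% (WT P1), 56.76% (WT P7), 79.71% (PRC1ctrl P6), 84.37% (PRC1cKO P6), 48.67% (PRC1ctrl P7), 79.82% (PRC1cKO P7), 91.35% (PRC2ctrl P6), 90.02% (PRC2cKO P6), and in H2AK119ub 27.38% (WT E18.5), 38.36% (WT P1), 29.49% (WT P6), 31.6% (WT P7), 23.61% (PRC2ctrl P6), 20.73% (PRC2cKO P6). There the share of control peaks absent from the knockout was 5.841% (PRC1 P6 H3K27me3), 8.2% (PRC1 P7 H3K27me3), 7.16% (PRC2 P6 H3K27me3), 35.21% (PRC2 P6 H2AK119ub), desert sequence was covered, in H3K27me3 8.044% (WT E18.5), 9.564% (WT P1), 8.24% (WT P6), 4.099% (WT P7), 7.384% (PRC1ctrl P6), 10.52% (PRC1cKO P6), 3.103% (PRC1ctrl P7), 6.602% (PRC1cKO P7), 8.216% (PRC2ctrl P6), 9.16% (PRC2cKO P6), and in H2AK119ub 2.65% (WT E18.5), 4.343% (WT P1), 2.78% (WT P6), 1.364% (WT P7), 1.559% (PRC2ctrl P6), 0.9836% (PRC2cKO P6), and the shares by flanking list were 13.08% (developmental transcription factors), 36.7% (neuronal adhesion and synapse organisers), 7.982% (neuronal channels and receptors), 0% (olfactory and vomeronasal receptors), 0.1109% (ribosomal proteins). Above the median of total signal, the share of desert peaks found was, in H3K27me3 97.73% (WT E18.5), 98.69% (WT P1), 88.07% (WT P7), 96.08% (PRC1ctrl P6), 96.25% (PRC1cKO P6), 82.27% (PRC1ctrl P7), 95.91% (PRC1cKO P7), 99.26% (PRC2ctrl P6), 96.88% (PRC2cKO P6), and in H2AK119ub 64.55% (WT E18.5), 72.95% (WT P1), 71.19% (WT P6), 53.07% (WT P7), 59.55% (PRC2ctrl P6), 54.66% (PRC2cKO P6), and the share of control peaks absent from the knockout was 2.07% (PRC1 P6 H3K27me3), 2.072% (PRC1 P7 H3K27me3), 2.919% (PRC2 P6 H3K27me3), 18.42% (PRC2 P6 H2AK119ub). With lists trimmed to equal covered length, which keeps fewer peaks of every list but WT P7 H2AK119ub, the share of desert peaks found was, in H3K27me3 24.94% (WT E18.5), 21.28% (WT P1), 9.347% (WT P7), 15.6% (PRC1ctrl P6), 19.52% (PRC1cKO P6), 13.69% (PRC1ctrl P7), 25.68% (PRC1cKO P7), 16.22% (PRC2ctrl P6), 33.04% (PRC2cKO P6), and in H2AK119ub 6.506% (WT E18.5), 10.48% (WT P1), 6.108% (WT P6), 8.608% (PRC2ctrl P6), 12.59% (PRC2cKO P6). There the share of control peaks absent from the knockout was 25.68% (PRC1 P6 H3K27me3), 26.35% (PRC1 P7 H3K27me3), 19.44% (PRC2 P6 H3K27me3), 21.45% (PRC2 P6 H2AK119ub), and desert sequence was covered, in H3K27me3 2.685% (WT E18.5), 2.678% (WT P1), 2.5% (WT P6), 1.737% (WT P7), 2.233% (PRC1ctrl P6), 2.924% (PRC1cKO P6), 2.151% (PRC1ctrl P7), 3.311% (PRC1cKO P7), 2.489% (PRC2ctrl P6), 4.522% (PRC2cKO P6), and in H2AK119ub 1.285% (WT E18.5), 1.873% (WT P1), 1.235% (WT P6), 1.357% (PRC2ctrl P6), 1.494% (PRC2cKO P6). With 2 genes on either side, the flanking shares were 21.93% (developmental transcription factors), 21.7% (neuronal adhesion and synapse organisers), 7.699% (developmental signalling and guidance), 6.847% (neuronal channels and receptors), 0.1989% (oocyte growth and maternal effect), 0.625% (olfactory and vomeronasal receptors). With H2AK119ub status from PRC2ctrl P6, the shares found at P7 were 93.47% (WT P7 with), 53.7% (WT P7 without), 48.87% (PRC1ctrl P7 without), 92.29% (PRC1cKO P7 with). At equal signal they were 66.07% (WT P7 without), 56.86% (PRC1ctrl P7 without), 88.6% (PRC1cKO P7 without). The lower values under stricter coverage and trimming follow from their construction, since both count fewer base pairs as found, and for the others the cause was not tested. As deposited, desert peaks stood above gene-touching peaks in 3 lists of H3K27me3, and in each they stood below when trimmed: WT P1 (92.8% against 91.9%, trimmed 21.3% against 45.3%), PRC1cKO P7 (85.4% against 85.1%, trimmed 25.7% against 44.2%) and PRC2cKO P6 (87.8% against 84.5%, trimmed 33% against 43.1%). WT P7 H2AK119ub, the list that sets the common length, kept its 40.1% of desert peaks and its 2.73% of desert sequence.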
